A study of Drosophila melanogaster with 2 samples.

Results

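The sites described here were binding sites of CG10654 that lay between the transcription start sites of 2 genes transcribed away from each other. Of the 4117 peaks that the authors kept by the irreproducible discovery rate (IDR), a comparison of the ranking of candidates between replicates, 852 had their summit within 500 bp of a minus-strand start on its left and of a plus-strand start on its right. They made up 20.7% of all IDR peaks and 39.4% of the 2164 IDR peaks with a summit within 500 bp of any start (95% Wilson interval 37.3 to 41.4%). The peaks came from chromatin immunoprecipitation sequencing in Drosophila melanogaster embryos from a transgenic line in which CG10654 carried a C-terminal green fluorescent protein (GFP) tag, precipitated with an antibody against GFP. Whole embryos of both sexes, 0 to 24 h old, were used, and chromatin was sonicated to 200 to 800 bp. Both biological replicates came from that line and formed the only group, so no untagged or untreated embryos were compared, and each value averages over the tissues and stages of embryogenesis. The read depth behind the peak lists is unknown, and all intervals below cover counting error over peaks or genes only.

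In a divergent promoter the upstream regions of 2 genes are shared, and a factor bound there lies upstream of both. Such pairs are common in the compact Drosophila genome, and many hold housekeeping genes, whose promoters often carry the DNA replication-related element (DRE) and the binding sites of the boundary factor BEAF rather than a TATA box. A start site pair is defined by annotation alone, so a peak between the starts does not tell which gene, if either, is affected.

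The strongest of these sites showed what the summit sequence looked like. The windows of 101 bp centred on the summit are given for the 5 members of highest signal whose window touched no annotated exon on arms 2L, 3L, 3R and X, in the Release 6 (dm6) reference sequence from RefSeq. Capitals mark the word AATAATTA, the BEAF core CGATA and the word TGTGAA, each on either strand.
Art3/mRpS10, chr3R:15229473-15229573, plus strand: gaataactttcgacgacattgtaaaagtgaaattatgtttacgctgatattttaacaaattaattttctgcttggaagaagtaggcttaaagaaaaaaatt
Tcs5/CHMP2B, chr3L:5139447-5139547, plus strand: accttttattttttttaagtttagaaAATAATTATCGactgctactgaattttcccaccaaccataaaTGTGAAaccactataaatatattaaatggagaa
mRpS23/CenG1A, chr2L:13835405-13835505, plus strand: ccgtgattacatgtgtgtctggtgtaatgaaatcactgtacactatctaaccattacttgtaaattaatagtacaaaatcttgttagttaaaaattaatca
CG5611/Mtl, chr3R:27636126-27636226, plus strand: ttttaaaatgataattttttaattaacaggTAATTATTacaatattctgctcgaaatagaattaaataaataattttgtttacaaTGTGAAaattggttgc
Atat/Shc, chr3L:9426829-9426929, plus strand: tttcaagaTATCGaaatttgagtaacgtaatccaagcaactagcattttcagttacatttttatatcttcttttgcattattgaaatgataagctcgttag

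These 5 windows held between 18.8 and 28.7% G or C. Of these windows, 3 of the 5 held neither AATAATTA nor another of the named words described below. For contrast, 3 of the 4 members of highest signal with a full DRE (TATCGATA, which contains CGATA on both strands) and no exon in the window are shown, a choice made after the values had been seen. Capitals mark the same 3 elements.
RpS25/CG4820, chr3R:11216296-11216396, plus strand: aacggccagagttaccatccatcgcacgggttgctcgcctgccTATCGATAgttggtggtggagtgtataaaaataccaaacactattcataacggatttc
dsd/Tusp, chr3R:27607434-27607534, plus strand: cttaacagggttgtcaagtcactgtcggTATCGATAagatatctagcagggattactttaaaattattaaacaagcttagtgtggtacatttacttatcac
CG9992/CG4239, chrX:16384967-16385067, plus strand: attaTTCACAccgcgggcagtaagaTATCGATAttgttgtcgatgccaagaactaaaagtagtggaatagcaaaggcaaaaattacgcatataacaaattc

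The 3 DRE-bearing windows held 34.7 to 46.5% G or C. Their deposited signal values, the authors' enrichment per peak, were 385 at RpS25/CG4820 and 192 at CG9992/CG4239, with dsd/Tusp between them, against 1041 to 1619 at the 5 windows above. The 5 windows were picked for the highest signal among members, so the choice itself set this gap.

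The member of highest signal lay between Chro, the gene of the chromodomain protein Chromator, and Ssl1, which encodes a subunit of the general transcription factor TFIIH. Its peak spanned chr3L:22878703-22879101 with a pooled signal of 1662, and it ranked 8 of all IDR peaks. The signal there was 1166 in replicate 1 and 501 in replicate 2. The replicate lists carry separate scales, so the ranks are the better guide, and they were 8 and 9. A further annotated start of Chro put the same summit 87 bp inside a Chro transcript, so this member was both between the genes and within an exon.

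The second member lay between Art3, an arginine methyltransferase gene, and mRpS10, a mitochondrial ribosomal protein gene. Its signal was 1619 in the pooled list, 1141 in replicate 1 and 480 in replicate 2, and the summit stood 115 bp from the Art3 start and 142 bp from the mRpS10 start. The third lay between Tcs5, a kinase gene of the complex that makes a universal tRNA modification, and CHMP2B, which encodes an ESCRT-III subunit. It had a pooled signal of 1338, with 930 in replicate 1 and 416 in replicate 2. Both summits stood near the middle of the interval, 13.5 and 10 bp from the midpoint.

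Next by signal came members between mRpS23 and CenG1A, an Arf GTPase-activating protein gene, and between CG5611 and Mtl, a Rac-like GTPase gene. The first of these had 1311 pooled, 850 in replicate 1 and 457 in replicate 2. The second had 1295, 922 and 372. At mRpS23/CenG1A the summit was off centre, 109 bp from CenG1A and 383 bp from mRpS23.

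The remaining 7 of the 12 strongest members had pooled signals of 929 to 1057. They lay at CG5757/CG5098, Pdrg1/Pal1, Atat/Shc, CG13390/CG17294, CG8372/CG8360, mRpL23/CG9004 and Fbw5/CG9147. Atat encodes the alpha-tubulin acetyltransferase, Shc a signalling adaptor, and Pal1 a peptide-amidating lyase. At Fbw5/CG9147 the summit was 4 bp from the CG9147 start, and the interval was 134 bp long. Within the 12, 3 members (Chro/Ssl1, CG8372/CG8360 and mRpL23/CG9004) had the summit in an annotated exon that begins at another start of one of the genes. Over all members the summit lay in an annotated exon in 126, or 14.8%, against 97 of 1081 (8.97%) other peaks upstream of a start. Those other peaks lay upstream of their nearest start by definition, while 81 members (9.51%) had the summit downstream of theirs. The classes were thus not alike in this respect, and its part in the difference was not tested. The lowest-ranked member, at l(3)mbt/CG5934, had a signal of 99.3 pooled, 67.5 in replicate 1 and 32.8 in replicate 2. l(3)mbt encodes a chromatin protein with malignant brain tumour repeats.

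Members were compared with the 1081 IDR peaks whose nearest start lay downstream of the summit within 500 bp but that had no partner start on the other side, called other upstream promoter peaks. The condition on the nearest start was not set for members, and 81 of them (9.51%) had the summit downstream of it. This difference enters each comparison of these classes. The median signal was 182 (quartiles 132 and 268) in members and 171 (124 and 279) in other upstream promoter peaks. The share above the median of all IDR peaks, 164, was 57.2% (487 of 852) against 53.0% (573 of 1081), with an odds ratio of 1.18 that missed the threshold (Fisher's exact test, adjusted exact p = 0.0969 over 4 comparisons). Of the 100 strongest IDR peaks, 28 were members. With starts required within 250 bp the odds ratio was 1.64 (adjusted exact p = 1.21e-05), and it was 1.30 with the strongest candidates of replicate 1 in place of the IDR list (adjusted exact p = 0.00553), 1.11 with those of replicate 2 (adjusted exact p = 0.342) and 0.829 in the stronger part of the IDR list (adjusted exact p = 0.183).

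A candidate summit within 100 bp was found in both replicates for 818 members (96.0%, interval 94.5 to 97.1%) and for 1032 other upstream promoter peaks (95.5%, interval 94.1 to 96.6%). The odds ratio was 1.14 (Fisher's exact test, adjusted exact p = 0.574), and with a match required within 50 bp it turned to 0.771 (adjusted exact p = 0.0233). Another 29 members were matched in replicate 1 alone, 4 in replicate 2 alone and 1 in neither.

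The replicates weighted the members differently. Within the separate candidate lists, 45.7% of matched members (374 of 818) stood at a higher percentile in replicate 1 than in replicate 2, against 32.9% (340 of 1032) of other upstream promoter peaks, with an odds ratio of 1.71 (Fisher's exact test, adjusted exact p = 9.38e-08). Because the lists differ in length (23253 candidates in replicate 1, 30000 in replicate 2), the ranks were also taken among the 3960 IDR peaks matched in both, a comparison added after the data had been seen. Members then ranked better in replicate 1 in 66.1% of cases (541 of 818) and other upstream promoter peaks in 51.0% (526 of 1032), with an odds ratio of 1.88 (adjusted exact p = 2.28e-10). The median member ranked 146.5 places better in replicate 1, the median of the other upstream promoter peaks 6 places better, and the median IDR peak outside promoters 64 places worse. With starts required within 250 bp the odds ratio of percentiles fell to 1.17 (adjusted exact p = 0.164). With a single library per replicate, a difference in the embryos and a difference in library preparation or depth cannot be told apart.

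**Figure D1:**
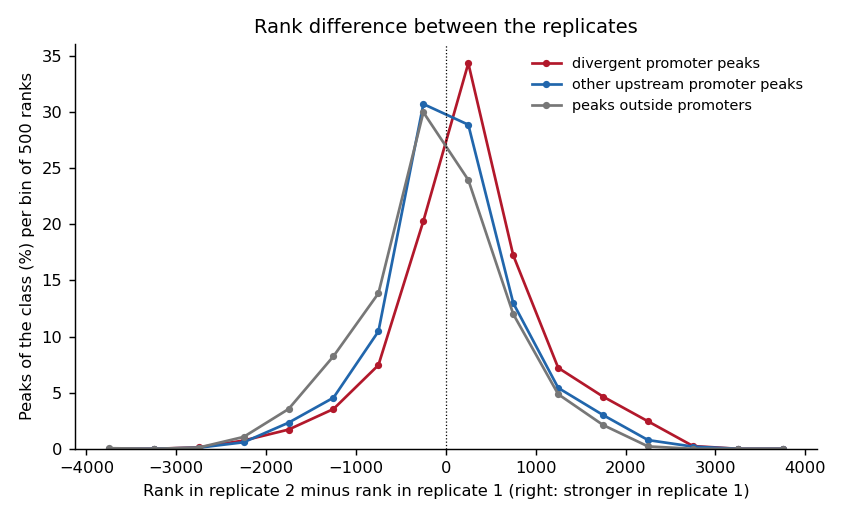
Rank in replicate 2 minus rank in replicate 1 for IDR peaks matched in both replicates (x axis, ranks; positive values are stronger in replicate 1), as the percentage of peaks of each class per bin of 500 ranks (y axis). The curve of the 818 members lies to the right of the other classes, with 34.4% of members between 0 and 500 against 28.9% of other upstream promoter peaks.

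The members involved 818 distinct gene pairs, of which 34 held 2 members each. RpL28/eIF1, a ribosomal protein gene and a translation initiation factor gene, was such a pair, with signals of 434 and 195. Both genes were protein-coding in 807 members. A non-coding RNA gene faced a coding gene in 36, a tRNA gene in 5 and a pseudogene in 3, and both genes were non-coding in 1.

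The opening between the starts was short, as the rule allows at most 1000 bp. Annotated divergent pairs within that limit had a median of 298 bp between their closest starts. The starts of members lay a median of 311 bp apart (quartiles 246.5 and 417 bp, range 8 to 990 bp), and SerRS/CG17260 was the closest pair, with a summit 1 bp from the seryl-tRNA synthetase start. The summit stood a median of 102 bp from the nearer start and 210 bp from the farther, and 438 members (51.4%) had it within 50 bp of the midpoint. In the 98 members with starts at most 200 bp apart this share was 83.7%, where most positions between the starts are that close to the middle, and the median signal was 157. In pairs 200 to 300 bp apart this share was 70.9% (207 of 292) and the median signal was 210. In pairs 400 to 600 bp apart it was 21.9% (43 of 196), the nearer start was a median of 134 bp away, and the median signal was 165. Between these last bins, the median distance to the nearer start went from 94 to 134 bp and that to the farther start from 161 to 341 bp. Of 38 members with starts over 600 bp apart, 17 had the summit within 50 bp of the midpoint. There the rule excludes summits close to either start, though in most of these intervals it admits some farther than 50 bp from the midpoint.

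**Figure D2:**
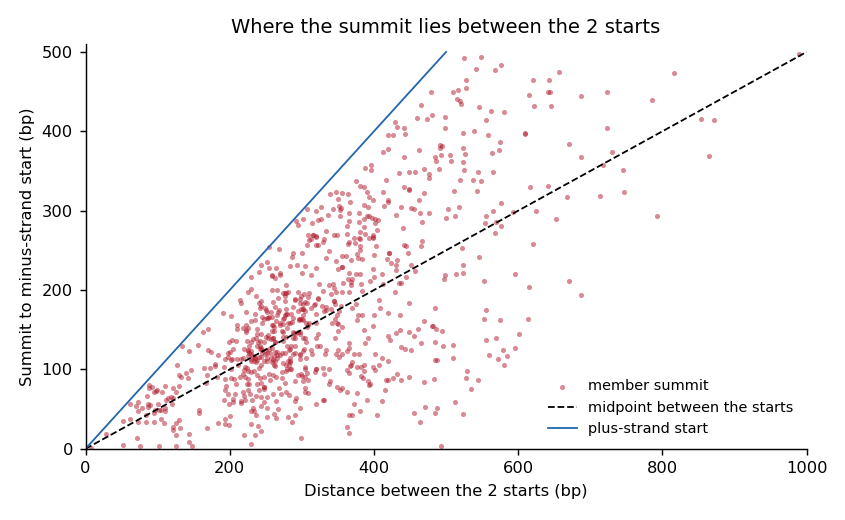
Distance from each member's summit to the minus-strand start (y axis, bp) against the distance between both starts (x axis, bp), 1 point per member. The dashed line marks the midpoint and the solid line the plus-strand start; points gather around the midpoint at distances of 200 to 300 bp and spread to either side of it in wider intervals.

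The edge of the rule was not sharp in signal. There were 8 members with the farther start over 480 bp away, among them asRNA:CR44429/gce at 499 bp with a signal of 557 and CG12237/Sec61gamma at 497 bp with 102. Just outside, 9 IDR peaks had it between 500 and 520 bp, among them Mpc1/CG42613 at 502 bp with 231 and CG6051/Men-b at 503 bp with 132.

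The annotation held 3200 adjacent divergent pairs with starts at most 1000 bp apart, each taken at its closest starts. An IDR summit lay between those starts, within the 500 bp limits, in 729 of them (22.8%, interval 21.4 to 24.3%). Members involved 818 gene pairs. Where a member lay only between other starts of the same genes, its pair was counted as without a summit. Among plus-strand genes, an IDR summit lay in the 500 bp upstream of the most upstream start in 814 of 3076 genes with a minus-strand start of another gene within 1000 bp upstream (26.5%), and in 264 of 4561 genes with no other gene's start within 1000 bp (5.79%). The odds ratio was 5.86 (Fisher's exact test over genes, p = 2.74e-142). In the first set the 500 bp searched can also hold the start of the other gene, so a peak at either promoter counted. The odds ratio is therefore not one per promoter. Expression was not measured in these data, so the part that the activity of the genes plays in this difference was not tested.

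Pairs of 2 protein-coding genes were occupied more often than mixed pairs. A summit lay between the starts in 693 of 2580 coding pairs (26.9%, interval 25.2 to 28.6%) and in 35 of 513 pairs of a coding and a non-coding gene (6.82%, interval 4.95 to 9.34%), with an odds ratio of 5.02 (Fisher's exact test, adjusted exact p = 9.09e-27). Among 107 pairs of non-coding genes, 1 held a summit. In the members with mixed pairs the summit was nearer to the coding start in 25 of 43 (58.1%, interval 43.3 to 71.6%), and the test against an even split did not pass (exact binomial p = 0.36).

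Occupancy peaked at an intermediate distance. A summit between the starts was found in 6.10% of the 508 pairs at most 100 bp apart, in 41.5% of the 633 pairs over 200 and up to 300 bp, in 41.4% of the 444 pairs up to 400 bp, and in 5.49% of the 546 pairs over 600 bp. The length open to a summit differs between these bins, so a summit anywhere within 500 bp of either start was counted as well: 25.2, 46.1, 43.5 and 23.3% of the same bins held one. That search covered the interval and 500 bp beyond each start, so its length also grew with the distance, though by a smaller factor. A split at the median distance, 298 bp, put the peak of this curve on both sides and gave 32.5% of closer and 32.0% of wider pairs, with an odds ratio of 1.02 (Fisher's exact test, adjusted exact p = 0.791). Compared after the curve had been seen, 45.0% of pairs over 200 and up to 400 bp apart (485 of 1077) and 25.8% of all others (547 of 2123) had such a summit, with an odds ratio of 2.36 (adjusted exact p = 1.11e-26 over the 22 comparisons added after the data had been seen). Among coding pairs alone the shares were 51.5 and 28.9% (odds ratio 2.61, adjusted exact p = 1.23e-28).

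**Figure D3:**
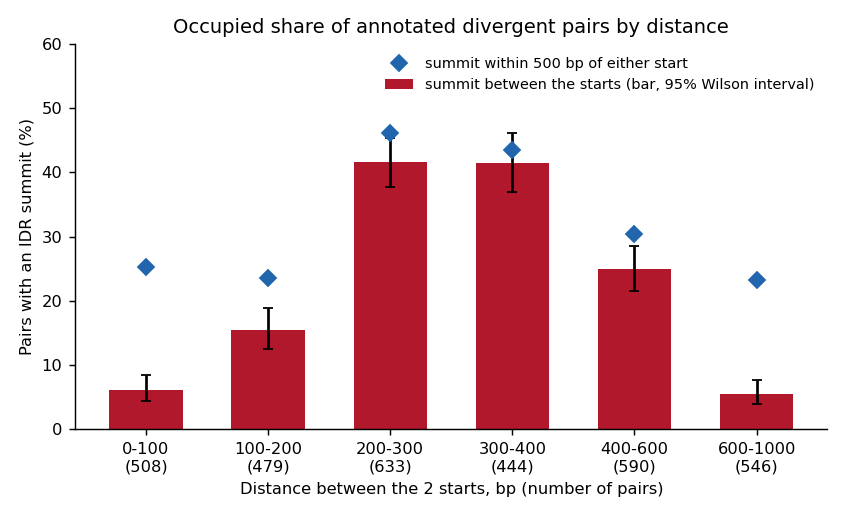
Share of annotated divergent pairs with an IDR summit (y axis, %) by the distance between the starts (x axis, bp, number of pairs in brackets). Bars count summits between the starts with 95% Wilson intervals and diamonds summits within 500 bp of either start; both are highest, at 41.4 to 46.1%, from 200 to 400 bp.

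The genes of annotated pairs were read against lists of housekeeping and tissue genes. Of 6160 genes at such pairs, 1414 (23.0%) had an IDR summit between the closest starts of their pair. This is the background for each count that follows. Non-coding genes are part of it, and among pairs of 2 coding genes alone the share of pairs was 26.9%. The genes named with each list are those of its strongest members. Such a gene need not be in its count, because a member can lie between other starts of the same pair. Of the cytosolic ribosomal protein genes, 27 of 58 did (46.6%, interval 34.3 to 59.2%). RpS27 was the strongest, sharing its promoter with Nup37, with signals of 889 pooled, 662 in replicate 1 and 221 in replicate 2 and the summit 8 bp from its start. RpL7 followed with 594 and RpL34b with 549. Mitochondrial ribosomal protein genes had summits in 22 of 58 (37.9%), and 24 of the listed genes were at members, the strongest at mRpS10, mRpS23 and mRpL23. Aminoacyl-tRNA synthetase genes had them in 8 of 23 (34.8%), with the strongest members at SerRS (455), IleRS (430) and GluProRS (425).

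Vesicle traffic and ESCRT genes had them in 27 of 66 (40.9%, interval 29.9 to 53.0%), with CHMP2B, Vps33B (697) and Rab3GAP1 (390) leading. The transcription machinery had 22 of 59 (37.3%), and 26 of the listed genes were at members. The strongest were at Ssl1, the Mediator subunit MED30 (493) and the RNA polymerase II subunit Polr2B (450). Splicing genes had 11 of 30 (36.7%), with U2af50 (404) first, then snRNP-U1-C (216) and SNRPG (214). Chromatin and insulator genes had 8 of 24 (33.3%), and 12 of the listed genes were at members. The strongest were at Chro, the remodeller ATPase brm (625) and the insulator protein gene Cp190 (611). Among genes of tRNA modification 4 of 13 had one (30.8%), with Tcs5 and the Elongator subunits Elp6 (435) and Elp5 (428).

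Replication and cell cycle genes stood at 11 of 37 (29.7%), with Cdc16 (380), Mcm2 (220) and Cdk12 (201). Proteasome genes stood at 7 of 26 (26.9%), with Rpn3 (301), Rpn5 (261) and Rpn6 (211), and oxidative phosphorylation genes at 12 of 48, with the complex I subunits ND-MWFE (358), ND-ASHI (342) and ND-51 (330). These were close to the background, and translation factors, with 4 of 28 (14.3%, interval 5.70 to 31.5%), were below it; eIF4EHP (731), eIF1 (434) and eIF3a (146) were named among them. No cuticle protein gene had one (0 of 13, which allows up to 23.1%), and of the chemosensory receptor genes at such pairs only Ir60e did (1 of 28, 3.57%), with a signal of 140. The lists are small, several share a pair, and none was given a test.

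Some members joined genes of different lists. Dref, which encodes the factor that binds the DRE, faced RpL13 across 84 bp, with a signal of 266 pooled, 173 in replicate 1 and 92.7 in replicate 2. Cdk1 faced mRpS7 (155), su(Hw) faced Polr2I (122), and mRpL39 faced Prosbeta2 (146). CG10654 itself was not at an annotated divergent pair. The nearest IDR summit lay 3632 bp from its start, and the nearest pooled candidate, 28 bp away, had a signal of 34.6, below the IDR list.

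The sequence at member summits was rich in A and T. Over the 101-bp windows, G and C made up 32.2% ± 9.10 (SD over 852 members) against 34.4% ± 9.79 over the 1081 other upstream promoter peaks. IDR peaks outside promoters were close to members, at 32.7% ± 8.09 over 1953 peaks, so a low G+C share was not particular to members. A G+C share above the IDR median of 31.7% was found in 43.5% of members and 54.2% of other upstream promoter peaks (odds ratio 0.652, Fisher's exact test, adjusted exact p = 7.28e-06). The mean rose from 31.4% in the 25 bp at the member summit to 49.4% at 500 bp to its right. By the rule, that position lies beyond the plus-strand start of every member.

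Base composition also separated pairs with and without a summit between their closest starts. In this and later comparisons, pairs without one included some with a member between other starts of the same genes. At the midpoint between the starts, coding pairs with a summit held 28.2% ± 8.96 G or C (SD over 693 pairs) and coding pairs without one 35.1% ± 10.4 (1887 pairs). A midpoint above the median of all coding pairs was found in 25.5% against 57.0% (odds ratio 0.259, Fisher's exact test, adjusted exact p = 8.85e-46, added after the data had been seen). The distances differed, since 36.1% of pairs without a summit and 14.4% of those with one had starts at most 200 bp apart. Only in the closest of these can the midpoint window of 101 bp pass the starts into transcribed sequence. Within coding pairs over 200 and up to 400 bp apart, 13.2% of 439 pairs with a summit and 35.1% of 481 without one were above the same median (odds ratio 0.281, adjusted exact p = 3.18e-14 over 6 comparisons at like distance, also added). In ChIP libraries G+C content can move coverage, and the part of that in this difference was not tested.

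**Figure D4:**
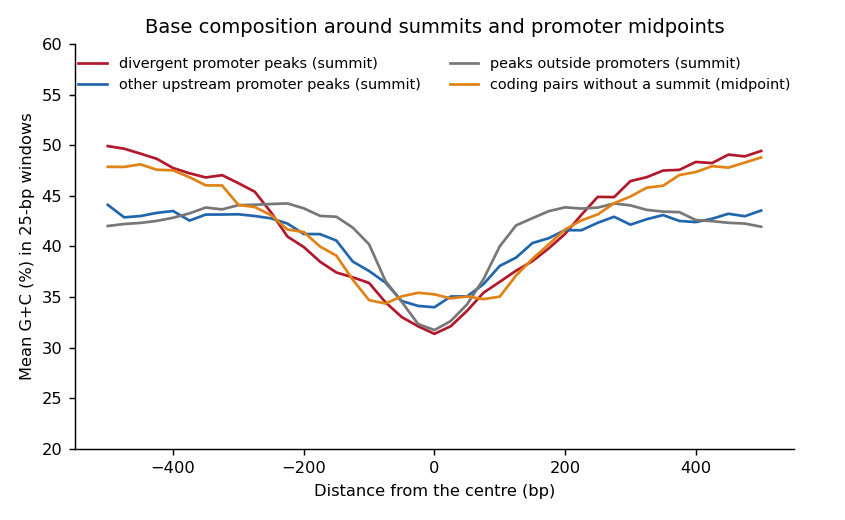
Mean share of G and C in windows of 25 bp (y axis, %) against the distance from the summit, or from the midpoint of coding pairs without a summit (x axis, bp). Members dip to 31.4% at the summit and rise to over 49% at the edges, while pairs without a summit, whose distances between starts differ from those of members, have a flat floor near 35%.

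All 8-mers present in 10 or more windows of members were compared between the summit window and a window 300 bp to the left or right. Of 3330 words tested, 304 were more frequent at the summit (9.13%) and 25 in the flank (exact McNemar test, adjusted exact p under 0.05). Of these 304 words, 127 were made of A and T alone and 9 held 3 or more G or C. The leading word, TAAAATTA, was in 62 summit windows and 5 flanks (adjusted exact p = 4.73e-10), and AAAATAAT was in 74 and 16 (adjusted exact p = 2.41e-07). Flanks of members often lie in transcribed sequence, which holds more G and C, and the part of base composition in these calls was not tested.

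The named words, taken from the same scan over all IDR peaks with similar words skipped, were ATTTAAAA, AAAATATA, TTTCAAAA and AATAATTA. They were found in 8.45, 6.81, 4.11 and 4.81% of member summit windows and in 2.46, 2.11, 0.704 and 1.17% of member flanks. In other upstream promoter peaks the shares were 6.75, 5.55, 3.98 and 3.52%, and no word passed the test between the classes (odds ratios 1.03 to 1.39, Fisher's exact test, adjusted exact p of 0.379 or more). None of the 4 words was in 671 members (78.8%). The words pointed toward the nearer gene in 45.5 to 57.1% of cases, and none passed the test against an even split (exact binomial test, lowest adjusted exact p = 0.787).

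Among 1050 words with 3 or more G or C, scanned after the data had been seen, 6 were more frequent at member summits (0.571%). They were led by TCGATAGT, in 27 summit windows and 3 flanks, and CTATCGAT, in 44 and 11 (exact McNemar test, adjusted exact p = 0.00457 for each). These contain the BEAF core and overlap the DRE. A further pair of words without it, TAGCTAGA (14 and 0, adjusted exact p = 0.0256) and CAACACTG (27 and 6, adjusted exact p = 0.0487), were called. Some of these words were also called over all IDR peaks, which include the members. There TCGATAGT was in 58 summit windows and 11 flanks, CTATCGAT in 85 and 20, and CAACACTG in 70 and 16.

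Of 16 words and consensus motifs, 3 differed between members and other upstream promoter peaks, with matches on both strands. CGATA was in 26.4% of members (225, interval 23.6 to 29.5%), 19.3% of other upstream promoter peaks and 16.7% of all IDR summit windows (odds ratio 1.50, Fisher's exact test, adjusted exact p = 0.00337). The DRE was in 5.05% of members (43), 2.50% of other upstream promoter peaks and 1.82% of all IDR windows (odds ratio 2.07, adjusted exact p = 0.0170). The GAGA element, GAGAGAG, was in 2 members (0.235%) and in 21 other upstream promoter peaks (1.94%, odds ratio 0.119, adjusted exact p = 0.00337). None of the 3 passed with starts required within 250 bp, with a single start per gene, or in the stronger part of the IDR list. In these settings the odds ratio was 1.03, 1.26 and 1.28 for CGATA and 1.03, 1.68 and 0.923 for the DRE. For the GAGA element it was 0.116 with a single start per gene and 0.211 in the stronger part of the list, and at 250 bp no member held it.

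Motifs that did not pass included the core promoter motif GGTCACAC (1.88 against 1.57%), the motif CANCNCT (25.1 against 21.5%, which is short and degenerate), the TATA box TATAAA (24.2 against 20.7%), the initiator TCAGT (16.3% in both) and the TCT core CTTTCT (6.22 against 6.75%). The adjusted exact p was 0.249 or higher for each. The Zelda site CAGGTAG was in 4 members (0.469%), against 0.278% of other upstream promoter peaks and 0.486% of all IDR summit windows.

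Among the members, the weaker sites carried the DRE and CGATA more often. CGATA was in 77 of the 426 members above the member median signal (18.1%, interval 14.7 to 22.0%) and in 148 of the 426 at or below it (34.7%, interval 30.4 to 39.4%), with an odds ratio of 0.414 (Fisher's exact test, adjusted exact p = 1.38e-07, added after the data had been seen). The DRE was in 10 and 33 (odds ratio 0.286, adjusted exact p = 0.000690). The members with a DRE had a median signal of 142 and those without one 186. G+C content moved with signal too: a window above the IDR median was found in 34.7% of the stronger and 52.3% of the weaker members (odds ratio 0.485). Within members above the member median of G+C, CGATA was in 25.5% of the stronger and 46.8% of the weaker ones (odds ratio 0.388, adjusted exact p = 3.39e-05). Within the others the shares were 13.4 and 19.6% (odds ratio 0.636, adjusted exact p = 0.111).

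**Figure D5:**
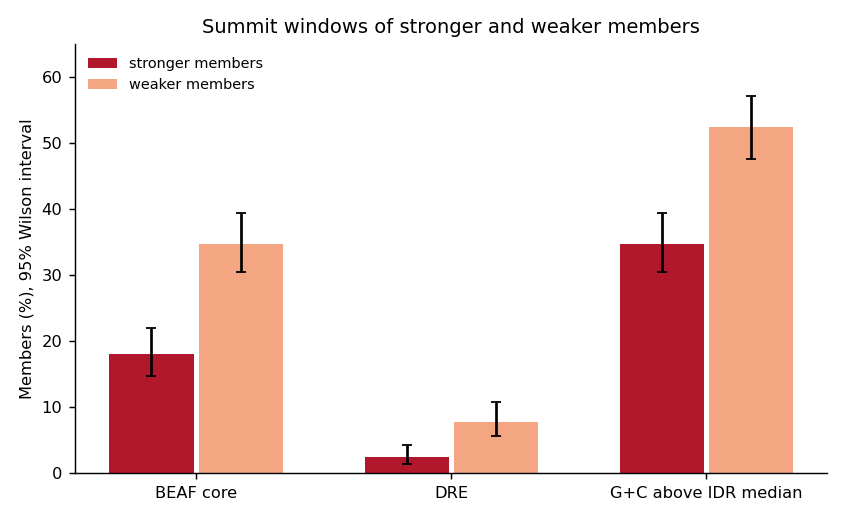
Percentage of members whose summit window held CGATA (BEAF core), the full DRE, or a G+C share above the IDR median (y axis, with 95% Wilson intervals), for the 426 stronger and the 426 weaker members. All 3 are lower among stronger members, at 18.1 against 34.7% for CGATA.

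Position moved with these measures as well. Members with the summit within the median distance of a start, 102 bp, held CGATA in 37.2% of cases against 15.5% of those farther away (odds ratio 3.23, adjusted exact p = 2.23e-12), and a G+C share above the IDR median in 59.5 against 27.5%. Their signal was above the member median in 45.0 against 55.1% (odds ratio 0.667, adjusted exact p = 0.00547). The parts of position, G+C content and the motif were not tested separately.

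Pairs with and without a summit also differed in these letters, and fewer of the differences passed the test at like distances. At midpoints of all coding pairs, CGATA was in 16.6% of 693 pairs with a summit and in 26.6% of 1887 without one (odds ratio 0.549, Fisher's exact test, adjusted exact p = 1.81e-07), the DRE in 2.60 against 5.94% (odds ratio 0.423), and GGTCACAC in 2 of 693 and 71 of 1887. Within pairs over 200 and up to 400 bp apart, CGATA was in 10.5 against 15.4% (odds ratio 0.644, adjusted exact p = 0.0619), the DRE in 5 of 439 against 8 of 481 (adjusted exact p = 0.875) and GGTCACAC in 0 and 1, and none of the 3 passed. The GAGA element, in 1 and 33 midpoints of all coding pairs, was there in 0 and 1. The TATA box letters were in 31.7 against 19.8% of all midpoints (odds ratio 1.88) and in 36.2 against 25.4% at like distance (odds ratio 1.67, adjusted exact p = 0.00131). TATAAA is made of A and T alone. At like distance, midpoints above the G+C median of all coding pairs made up 13.2% with a summit and 35.1% without one. The part of base composition in the TATA box difference was not tested. Over all 6545 8-mers tested at midpoints of all coding pairs, 102 were more frequent in pairs with a summit (1.56%) and 31 in pairs without (0.474%). Those called included CAGCTGAT, in 1 and 64 midpoints (adjusted exact p = 0.000178), and TTAAATAA, in 70 (10.1%) and 83 (4.40%) midpoints (adjusted exact p = 0.000414). This scan was not restricted to like distances, and the part of base composition in its calls was not tested.

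A scan of all 1786 6-mers between stronger and weaker members, added after the data had been seen, called 4 less frequent in the stronger members (0.224%) and 2 more frequent (0.112%). The 4 were TATCGA and CTATCG, then ATCGAT and TTATCG, which overlap CGATA or the DRE. The 2 were TGTGAA, in 44 stronger and 13 weaker members (10.3 against 3.05%, odds ratio 3.66, adjusted exact p = 0.00925), and CAATAC, in 39 and 12 (odds ratio 3.48, adjusted exact p = 0.0376). TGTGAA is marked above in the windows of Tcs5/CHMP2B and CG5611/Mtl and, as TTCACA, in the weaker CG9992/CG4239. In the 3265 IDR peaks outside the divergent class, it was in 6.37% of the stronger and 7.41% of the weaker peaks (odds ratio 0.850), and no 6-mer passed the same scan there (0 of 2078, with 120 at an unadjusted exact p under 0.05). The odds ratios of the 4 words less frequent in stronger members lay on the same side of 1 in those peaks, from 0.587 for CTATCG to 0.789 for TTATCG. Its share over all members was 6.69%, and 8.14% in other upstream promoter peaks. Since TGTGAA was picked for its difference in these peaks, its odds ratios in other lists are descriptions: 1.64 among the strongest candidates of replicate 1, 2.17 among those of replicate 2 and 0.958, the other direction, in the stronger part of the IDR list.

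Members were spread over the chromosome arms, with 160 on 2L, 157 on 2R, 181 on 3L, 258 on 3R and 96 on X, and none on 4. Median signals were 168 on X and 177 to 196 on the other arms that held members. A summit lay between the starts in 30.8% of the 777 annotated pairs on 3R (interval 27.6 to 34.1%), 24.4% of 606 on 3L, 20.4% of 632 on 2L, 19.7% of 680 on 2R and 16.4% of 482 on X. Arm 4 had 23 pairs and no summit, which allows a share of up to 13.0%. These shares were not tested against each other.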

How the data were processed

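The authors deposited peak lists from 2 biological replicates of 1 group: candidate lists for each replicate and for the pooled reads, each called against a control, and a shorter list kept by IDR, per the file descriptions. For the aligner and the peak caller, name and version were not given in the sources used here. As deposited, the signal column is the authors' enrichment per peak, with no absolute scale, and was used only to rank or split peaks within a list. Coordinates are dm6, 1-based. The deposited dm3 lists were not used. Starts came from the Ensembl release 115 annotation of arms 2L, 2R, 3L, 3R, 4 and X without transposable elements (18164 genes), and sequence from the Release 6 assembly, whose arm names and lengths are those of dm6.

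Shares were compared by 2-sided Fisher's exact tests, 8-mers by exact McNemar tests and even splits by exact binomial tests, each with a threshold of 0.05 after Benjamini-Hochberg adjustment within its family (Python 3.11.15, numpy 2.4.6, scipy 1.17.1). Words were merged over strands and tested if present in 10 or more windows. The word scan was tested on simulated sequence with a planted word. Peaks, genes and pairs are not biological replicates, so p-values describe counts within these lists and not variation between embryos. With 1 group of 2 samples, no test between conditions was possible.

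Members, gene lists, motifs and most tests were chosen with earlier results of these data known, and 22 Fisher's tests, 6 more within pairs of like distance, the scans of 6-mers, of words with 3 or more G or C and of pair midpoints, and the ranking among matched peaks were added after the values had been seen. Named genes are both genes of the 12 members of highest signal and of the lowest, the 3 strongest members of each of 14 gene lists, and CG10654; other genes, such as those facing each other from different lists, were chosen after their values were seen. In the gene lists 2 entries, Z4 and Sf3a3, matched no symbol and were left out. Alternatives changed the start window, gene types, starts per gene, peak list, window width, flank and match distance.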

Additional observations from a re-analysis of the deposited data

How the results depend on the processing

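The divergent share of promoter IDR peaks, 39.4%, was 30.1% with starts within 250 bp, 35.7% with a single start per gene and 41.7% in the stronger part of the IDR list, and 38.1 to 39.7% with 1 replicate left out. The comparisons of G+C content, upstream occupancy and coding against mixed pairs kept their direction and side of the threshold under every alternative run for them, 9, 7 and 6 in number. The signal odds ratio, 1.18, was 1.64 at 250 bp, turned to 0.829 in the stronger part of the list (adjusted exact p = 0.183), and ranged from 1.11 to 1.30 with 1 replicate left out, passing the threshold without replicate 2. The match in both replicates turned to 0.771 at 50 bp, and the percentile comparison was 1.17 at 250 bp. The split of pairs at the median distance, 1.02, turned to 0.496 at 250 bp (adjusted exact p = 1.41e-15), where only pairs at most 500 bp apart enter, and passed at 1000 bp (1.37) and in the stronger part of the list (1.27); with 1 replicate left out it was 0.964 to 1.12, turning without replicate 2. The summit was nearer to the coding start in 69.9% of mixed pairs at 1000 bp, where the test against an even split passed (exact binomial p = 0.000914). The 304 words became 165 with windows of 25 bp on either side, 475 with 100 bp and 787 with the flank at 600 bp. The 3 motifs called became 0 at 250 bp, with a single start per gene and in the stronger part of the list, 1 with the narrower window and 6 with the wider one, and 4 to 6 with 1 replicate left out; the DRE odds ratio turned to 0.923 in the stronger part of the list. There the odds ratio of TGTGAA between stronger and weaker members also turned, to 0.958, and that of CGATA was 0.728 (adjusted exact p = 0.270). With the wider window that of TGTGAA was 1.49. The causes were not tested. No word orientation passed under any alternative. No paired analysis was possible because both samples belong to 1 group. Read depth is unknown, and no interval covers it.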

Other observations

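Member summits lay closer to the plus-strand start than to the minus-strand start in 476 cases and the reverse in 373, with 3 at equal distance (56.1% toward the plus-strand start, interval 52.7 to 59.4%, exact binomial p = 0.000457, noticed in the data and then tested on them). The median summit stood 9.75 bp to the plus-strand side of the midpoint. In lists of equal length from each replicate the counts were 474 and 399 in replicate 1 (exact p = 0.0122) and 417 and 375 in replicate 2 (exact p = 0.145). Other upstream promoter peaks showed a median distance of 174 bp from plus-strand and 172.5 bp from minus-strand starts.

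Of the 2471 annotated pairs without an IDR summit between their closest starts, 661 (26.8%) held a pooled candidate summit there that did not reach the IDR list. The remaining pairs held none between those starts in the pooled list of 27219 candidates.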
